A study of Mus musculus with 83 samples.

Results

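The 10 genes described here are non-coding hosts of small nucleolar RNAs (snoRNAs): 1110038B12Rik, 2410006H16Rik, 2700038G22Rik, Snhg1, Snhg3, Snhg4, Snhg5, Snhg6, Snhg8 and Gas5. They were taken by name from the count tables, which list 27752 genes for the parental line, and all 10 were found in every table. A snoRNA host is transcribed by RNA polymerase II (Pol II) and spliced, and the snoRNAs are then trimmed out of its introns. Box C/D snoRNAs guide ribose methylation of ribosomal and other RNAs, and box H/ACA snoRNAs guide the conversion of uridine to pseudouridine. The spliced RNA that remains of the host is often short-lived.

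Pol II was profiled by CUT&Tag in mouse embryonic stem cells (mESCs). The method tethers a transposase to an antibody, which then inserts adapters into the DNA around the bound protein. The question was what happens to Pol II when the TATA-box binding protein (TBP) is removed. C64 cells carry the mAID degron on both alleles of the endogenous Tbp gene, in JM8.N4 mESCs with GFP-tagged histone H3.3, and lose TBP when indole-3-acetic acid (IAA, 500 µM) is added. The study also describes a HaloTag in C64 cells, knocked in at the C-terminus of the largest subunit of Pol II, which the Pol II antibody binds. B8 cells are one CRISPR clone derived from C64 that has lost the whole coding sequence of Tbpl1, which encodes TRF2, a paralog of TBP. B8 cells and their controls thus carry mAID-TBP and the HaloTag too. The controls received vehicle and are called untreated here. The 24 libraries with counts fall into 12 groups of 2. In sequencing run 2, C64 cells were untreated, given IAA for 6 h, heat shocked at 42 °C for 30 min, or given both. In run 3, C64 cells were untreated, given IAA for 16 h, given retinoic acid for 16 h (25 µM by the labels, while the study's methods state another concentration), or given both. In runs 6 and 8, B8 cells were untreated or given IAA for 6 h. The duration of IAA and the cell line changed together with the sequencing run, and their effects on levels cannot be told apart from it.

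Assigned counts ranged from 3854622 to 5056322 in C64 libraries, from 900651 to 1157308 in B8 libraries of run 6 and from 2330887 to 2523832 in B8 libraries of run 8. Tbpl1 stood at 6.18 to 15.8 CPM (counts scaled to a common library size of 1000000) in C64 libraries and at 0 to 4.34 CPM in B8 libraries. Of the mESC markers, Esrrb (203 to 1260 CPM) and Tet1 (238 to 1665 CPM) carried Pol II in all 24 libraries, while Sox2 was listed at 0 in all of them. The counting rule given below can leave a gene at 0, and whether it did so for Sox2 was not tested. Markers of other cell types were not at 0. Per kb of gene length, the medians of the 10 mESC markers ran from 0 (Sox2) and 1.18 CPM (Tdgf1) through 1.38 (Nanog) and 2.29 (Pou5f1) to 7.91 (Tet1), and those of the 7 other markers from 0.152 (Col1a2) through 1.13 (Gata6) and 2.83 (Cdx2) to 4.09 (Sox17). These ranges overlap, and any part of other cells in the results was not tested. The second library of the B8 control of run 6 had 11.8% of its counts in genes that are listed in the B8 tables only, against 4.34% to 6.42% in the other libraries for which this could be computed. In bulk libraries such as these, fewer cells with Pol II on a gene and less Pol II per cell cannot be told apart.

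The hosts hold 29 snoRNA genes. Box C/D snoRNAs lie in 1110038B12Rik, 2410006H16Rik, 2700038G22Rik, Snhg1, Snhg5, Snhg6 and Gas5, with 8 snoRNA genes each in Snhg1 and Gas5. Snhg3 (Snora73a and Snora73b), Snhg4 (Snora74a) and Snhg8 (Snora24) hold H/ACA snoRNAs. The snoRNAs of the 3 hosts that were lower with IAA over all contexts (below) are shown first, with one H/ACA snoRNA for contrast, as read from the mouse genome (GRCm38). Capitals mark box C (TGATGA in the first 15 bases) and box D (CTGA in the last 15 bases), and matches were searched on the snoRNA strand only.
Snord52 in 1110038B12Rik, chr17:34950952-34951017, minus strand: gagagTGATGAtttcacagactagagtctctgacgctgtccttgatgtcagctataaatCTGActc
Gm25744 in 1110038B12Rik, chr17:34952013-34952075, minus strand: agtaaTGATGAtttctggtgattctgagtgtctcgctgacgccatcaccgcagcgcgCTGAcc
Snord49b in 2410006H16Rik, chr11:62603079-62603150, plus strand: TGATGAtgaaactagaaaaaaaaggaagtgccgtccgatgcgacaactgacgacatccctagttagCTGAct
Snord49a in 2410006H16Rik, chr11:62603450-62603521, plus strand: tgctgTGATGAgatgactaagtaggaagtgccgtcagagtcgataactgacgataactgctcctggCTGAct
Snord65 in 2410006H16Rik, chr11:62604515-62604586, plus strand: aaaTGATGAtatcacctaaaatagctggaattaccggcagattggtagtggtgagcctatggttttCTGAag
Snord93 in 2700038G22Rik, chr5:23852210-23852280, plus strand: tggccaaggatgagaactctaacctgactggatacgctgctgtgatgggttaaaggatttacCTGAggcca
Snora24 in Snhg8, chr3:123507937-123508066, minus strand: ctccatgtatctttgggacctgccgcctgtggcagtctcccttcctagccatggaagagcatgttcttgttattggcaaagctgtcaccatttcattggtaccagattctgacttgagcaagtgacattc
Of the 28 snoRNA genes whose sequence was read, 16 held both exact boxes, 25 held box D, and 3 held ACA in the last 8 bases.

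All 29 snoRNA genes were at 0 counts in every library that lists them. The counting dropped any fragment that touched more than one gene, so fragments over a hosted snoRNA were counted neither for the snoRNA nor for the host, and a 0 here is no measure of Pol II at the snoRNA. The same rule removed fragments over other genes that share the host's span. In Snhg3 this left 81 of 5673 bases, because 5592 bases lie within Rcc1 on the same strand. In Snhg4 it left 8411 of 34338 bases, since the annotated span runs 25571 bases into Matr3, itself at 0 counts in 23 of 24 libraries and at 1 in the other. In the other 8 hosts 73.4% to 99.5% of the span was free. Counting used no strand, so the reads of a host and of a gene on the opposite strand within reach of a fragment cannot be told apart. Lrrc75a, on the opposite strand, ends 77 bases beyond the end of 2410006H16Rik, and Slc3a2 lies 106 bases from Snhg1. Hspa1b, a heat shock gene on the same strand as 1110038B12Rik, ends 3965 bases upstream of it.

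**Figure D1:**
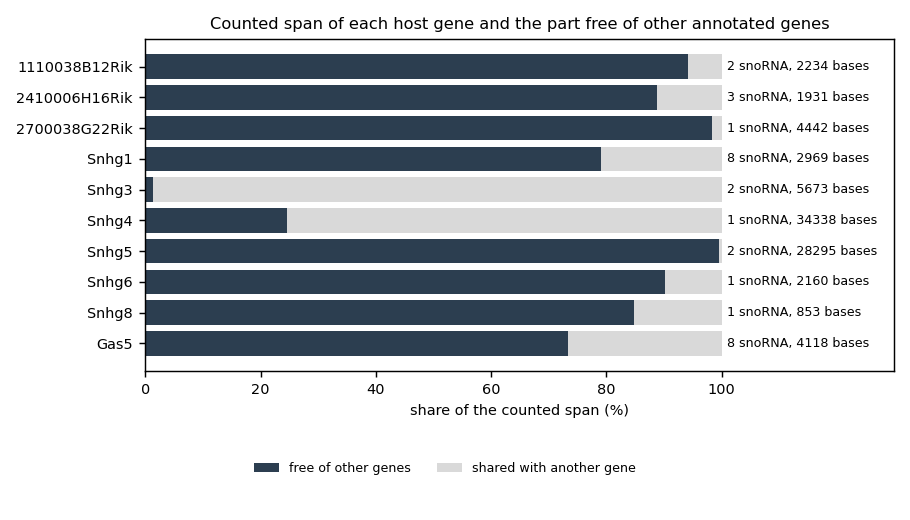
The share of each host gene's counted span (horizontal axis, percent) that is free of other annotated genes (dark bars) or shared with one (grey bars), with 1 bar per gene. Snhg3 (1.4%) and Snhg4 (24.5%) stand below the other 8 genes, which lie between 73.4% and 99.5%.

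The promoters are shown because the protein removed in these cells is the one that binds the TATA box. RefSeq starts were found for 8 of the hosts (all but Snhg4 and Snhg6). Each line holds 60 bases before and 20 bases from the annotated start (RefSeq, GRCm38.p6), in the direction of the gene, with capitals where one of 3 motifs lies 45 to 15 bases upstream. These are TATAAA, then TATATA in Gas5, then TTTAAA in 2700038G22Rik. The search covered both strands, and in Snhg1 the capitals are TATAAA read on the opposite strand.
1110038B12Rik, chr17:34952452-34952531, minus strand: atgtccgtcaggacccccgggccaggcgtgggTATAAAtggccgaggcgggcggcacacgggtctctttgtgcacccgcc
2410006H16Rik, chr11:62602817-62602896, plus strand: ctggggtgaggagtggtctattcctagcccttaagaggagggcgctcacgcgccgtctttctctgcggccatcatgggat
2700038G22Rik, chr5:23850537-23850616, plus strand: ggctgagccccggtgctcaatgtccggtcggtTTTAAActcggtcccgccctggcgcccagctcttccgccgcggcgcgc
Snhg1, chr19:8723427-8723506, plus strand: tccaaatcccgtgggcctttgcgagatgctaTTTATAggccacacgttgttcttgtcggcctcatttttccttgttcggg
Snhg5, chr9:88522878-88522957, minus strand: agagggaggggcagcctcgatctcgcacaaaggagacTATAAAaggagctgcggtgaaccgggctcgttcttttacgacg
Snhg8, chr3:123508317-123508396, minus strand: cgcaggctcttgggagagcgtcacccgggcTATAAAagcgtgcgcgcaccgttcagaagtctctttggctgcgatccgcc
Gas5 (the second of its starts), chr1:161035106-161035185, plus strand: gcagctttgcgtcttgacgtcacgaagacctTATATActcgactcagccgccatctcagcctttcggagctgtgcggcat
TATAAA lay in that window in 4 of the 8 hosts (1110038B12Rik, Snhg1, Snhg5 and Snhg8) and in 3.68% of the 17831 genes with a promoter sequence. TATATA (Gas5) and TTTAAA (2700038G22Rik), both looked for after the sequences had been seen, lay there in 1.44% and 1.78% of genes. No match was found in 2410006H16Rik, Snhg3 or the first start of Gas5. The deposited list of genes with a TATA box held none of the 10 hosts and 18.6% of all genes, and the deposited TATA-less list held 9 of the 10 (all but Gas5) and 61.6% of all genes, so for 4 hosts the letters near the RefSeq start and the deposited class differ.

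In the 4 untreated C64 libraries, the level per kb of gene length was highest for Gas5 (57.9 ± 26.1 CPM per kb, SD) and then fell through 2410006H16Rik (33 ± 11.4), 1110038B12Rik (27.4 ± 14.8), Snhg1 (23.5 ± 12.5), Snhg8 (17.5 ± 7.56), Snhg6 (15.4 ± 8.3), Snhg4 (11.3 ± 3.86) and 2700038G22Rik (10.5 ± 6.12). Snhg5 (3.49 ± 1.31) and Snhg3 (0.953 ± 0.4) were lowest. The ranges of neighbours overlapped throughout this order except between Snhg5 (1.64 to 4.73) and Snhg3 (0.635 to 1.5). Per kb of span free of other genes, a scale chosen after the overlaps had been seen, Snhg3 moved to second place (66.7 ± 28 CPM per kb) behind Gas5 (79 ± 35.6) and Snhg4 came next (46 ± 15.8). The order of Snhg3 and Snhg4 thus depended on which length was used, and Snhg3 rested on at most 40 counts in any library.

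**Figure D2:**
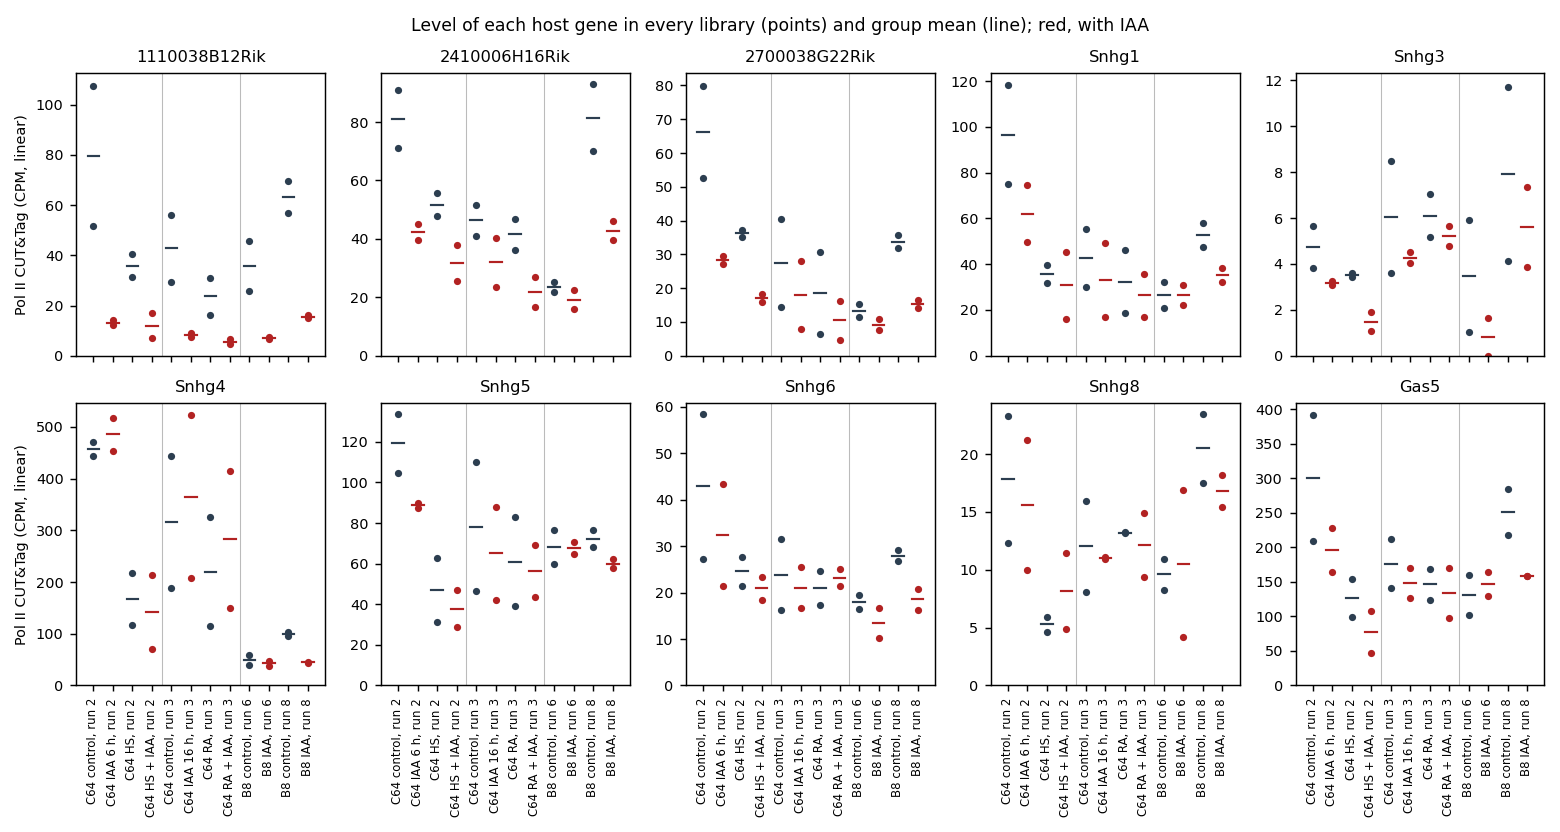
Pol II level of each host gene (vertical axis, CPM on a linear scale from 0) in each of the 24 libraries (points), by group along the horizontal axis, with the group mean as a line and IAA groups in red. In 1110038B12Rik every IAA group lies below its own control group, and in Snhg4 the B8 groups lie between 38 and 103 CPM, below all untreated C64 libraries.

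Across all contexts, IAA lowered Pol II on 3 of the 10 hosts, and none rose. 1110038B12Rik fell 4.43-fold, 2700038G22Rik and 2410006H16Rik fell by less, and the other 7 hosts had log2 fold changes between -0.65 and -0.03 that did not pass the test. The test set 12 libraries with IAA against 12 without, and each pair of groups that differ only in IAA (4 in C64 and 2 in B8, called contexts) formed a block. By this fit 0.733% of the 17873 genes tested were lower and 0.0727% higher in edgeR's quasi-likelihood test at an adjusted p below 0.05. The median log2 fold change was -0.38 over the hosts and -0.00112 over all genes. The 10 hosts were chosen with earlier results known. The study itself lists the 3 called hosts as lower after 6 h of IAA in C64. The run 2 libraries behind that list also enter this fit, so 3 of 10 is no measure of snoRNA hosts as a class.

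1110038B12Rik, host of Snord52, showed the lowest p of all genes in that test. In C64 run 2 its level was 107 and 51.6 CPM in the untreated libraries and 12.2 and 14.3 CPM after 6 h of IAA. In run 3 it was 56.2 and 29.5 CPM without and 9.24 and 7.59 CPM after 16 h of IAA. Every IAA library thus lay below both of its controls at both times. Under heat shock it was 31.3 and 40.4 CPM without and 17 and 6.98 CPM with IAA, and under retinoic acid 31.1 and 16.2 CPM without and 4.84 and 6.47 CPM with IAA. In B8 the untreated libraries held 45.5, 25.9, 69.4 and 56.7 CPM and the IAA libraries 6.75, 7.47, 16.1 and 15 CPM. The groups did not overlap in any of the 6 contexts, which held for 0.162% of genes (29 of 17873). The ratio of the group means was 0.166 to 0.334. Over all contexts the log2 fold change was -2.15 ± 0.17 (SE, 95% confidence interval -2.50 to -1.79, adjusted p = 7.76e-09), and it was called under each of the 30 alternatives tried, between -2.30 and -2.02.

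2410006H16Rik, host of Snord49a, Snord49b and Snord65, fell by less, and in 5 of 6 contexts without overlap. In run 2 it stood at 91 and 71.2 CPM without and 39.6 and 45.2 CPM with IAA, and in run 3 at 51.7 and 41 CPM without and 40.3 and 23.7 CPM with IAA. Under heat shock it was 47.8 and 55.6 CPM without and 25.7 and 37.9 CPM with IAA, and under retinoic acid 46.9 and 36.2 against 26.8 and 16.8 CPM. In B8 run 8 it was 92.9 and 70.1 against 46 and 39.5 CPM. The IAA libraries lay below their controls in these 5 contexts, but overlapped them in B8 run 6 (25.3 and 21.7 CPM without, 16 and 22.4 CPM with IAA). The log2 fold change over all contexts was -0.76 ± 0.11 (SE, adjusted p = 0.000276), and the call held when each of the 24 libraries was left out in turn. Lrrc75a, the convergent neighbour, also fell, by 1.31 ± 0.189 on the log2 scale (adjusted p = 0.000249), from 1176 to 471 CPM in run 2, and any part of its Pol II in the host's value was not tested.

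2700038G22Rik, host of Snord93, was lower in 4 of 6 contexts without overlap. In run 2 it went from 79.9 and 52.6 CPM to 27.2 and 29.4 CPM with IAA, and under heat shock from 35.1 and 37.2 CPM to 16.1 and 18.2 CPM. In B8 it went from 15.2 and 11.4 CPM to 11 and 7.47 CPM in run 6 and from 35.7 and 31.8 CPM to 16.5 and 14.2 CPM in run 8. In run 3 the libraries overlapped, with 40.4 and 14.4 CPM without and 28.1 and 7.82 CPM with IAA. The second library of each run 3 group was below the first by a wider margin than IAA made, and the same was seen under retinoic acid (30.7 and 6.34 CPM without, 16.3 and 4.8 CPM with IAA). The log2 fold change over all contexts was -0.94 ± 0.22 (SE, adjusted p = 0.0318), a call that held in 9 of the 24 fits that left out 1 library (adjusted p up to 0.109).

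The other hosts showed no such order. Their log2 fold changes over all contexts were -0.65 (Snhg3, adjusted p = 0.315), -0.38 (Gas5, 0.32), -0.38 (Snhg1, 0.502), -0.26 (Snhg6), -0.24 (Snhg5), -0.12 (Snhg4) and -0.03 (Snhg8, 95% confidence interval -0.41 to 0.35), in edgeR's quasi-likelihood test. Gas5, an abundant host of 8 snoRNAs, stood at 392 and 209 CPM without and 229 and 164 CPM with IAA in run 2, and at 160 and 102 against 165 and 130 CPM in B8 run 6. Snhg4 stood at 472 and 444 CPM without and 517 and 454 CPM with IAA in run 2. Of the 10 hosts, 6 had a lower mean with IAA in all 6 contexts, which held for 5.26% of genes: the 3 called hosts, Snhg1, Snhg3 and Snhg5. In B8 run 6 the ratio of the group means was 0.999 for Snhg1 and 0.992 for Snhg5, close to no change. Of the 4 hosts with TATAAA near the start (on the opposite strand in Snhg1), 1110038B12Rik was called lower, and Snhg1, Snhg5 and Snhg8 did not pass. Of the other called hosts, 2410006H16Rik held none of the motifs and 2700038G22Rik held TTTAAA. A link between these motifs and the response to IAA was not tested.

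**Figure D3:**
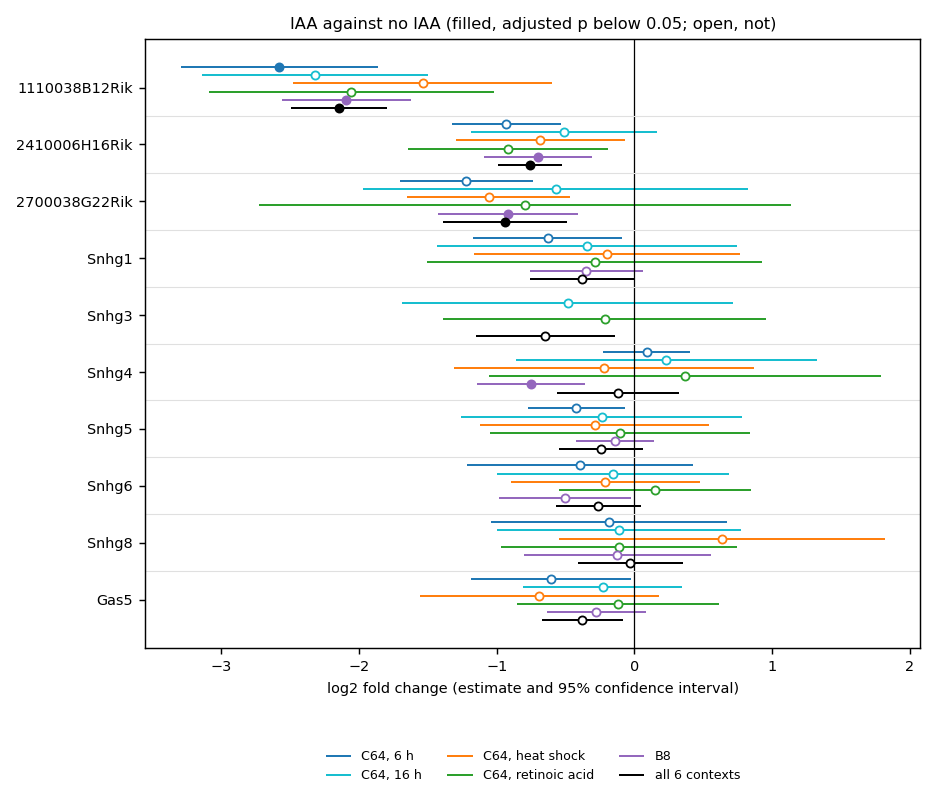
Log2 fold change of each host gene with IAA (points, horizontal axis) with its 95% confidence interval (lines), for the C64, heat shock, retinoic acid and B8 comparisons and for all contexts together. 1110038B12Rik lies between -2.58 and -1.54 in every comparison, while Snhg8 lies on both sides of 0.

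Taken alone, the contexts differed in how many calls they allowed. After 6 h of IAA in C64, 1110038B12Rik fell 5.99-fold (log2 -2.58 ± 0.32, 95% confidence interval -3.30 to -1.87, adjusted p = 0.0296) and was the only host among the 7 genes called (0.0433% of 16157, all lower). 2700038G22Rik (-1.22 ± 0.22, adjusted p = 0.211) and 2410006H16Rik (-0.93 ± 0.18, adjusted p = 0.287) had the next largest values. With 1 library left out, 1 group held a single library and showed no spread. The value then lay between -3.01 and -1.97 for 1110038B12Rik and between -1.48 and -0.897 for 2700038G22Rik. Snhg3 had too few counts to be tested. In 6 of the 10 hosts, Snhg3 among them, both IAA libraries lay below both controls, against 14% of the genes tested, which do not include Snhg3. These include the 3 hosts that the study lists as lower in this comparison, from the same libraries. After 16 h, no gene of 16349 passed (0%, with 319 at an unadjusted p below 0.05), although 1110038B12Rik again ranked first (-2.32 ± 0.36, 95% confidence interval -3.14 to -1.50, adjusted p = 0.999). With 1 library left out, and so a single library in 1 group, its value lay between -2.71 and -1.79. Both IAA libraries lay below both controls in this gene and in 2410006H16Rik, and in 15.1% of genes. In the test of 16 h against 6 h, 0% of genes were called (186 of 16879 at an unadjusted p below 0.05), and the difference for 1110038B12Rik was 0.25 (95% confidence interval -0.92 to 1.42).

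Under heat shock and under retinoic acid, no gene passed with IAA (0% of 16628 and of 16439, with 160 and 104 genes at an unadjusted p below 0.05). Under heat shock 1110038B12Rik had a log2 fold change of -1.54 ± 0.41 (95% confidence interval -2.48 to -0.60, adjusted p = 1) and 2700038G22Rik of -1.06 ± 0.26, at ranks 5 and 2 by p. Under retinoic acid 1110038B12Rik ranked second (-2.06 ± 0.43, 95% confidence interval -3.09 to -1.02, adjusted p = 1). With 1 library left out, 1 group held a single library. The value of 1110038B12Rik then lay between -2.36 and -1.01 under heat shock and between -2.45 and -1.54 under retinoic acid. The IAA libraries lay wholly below their controls in 4 hosts under heat shock (1110038B12Rik, 2410006H16Rik, 2700038G22Rik and Snhg3) and in 2 under retinoic acid (1110038B12Rik and 2410006H16Rik), beside 12.5% and 9.69% of the genes tested. Snhg3 was not among the genes tested under heat shock. No host passed the test of whether its response to IAA differed under heat shock (0% of 16961 genes called, 121 at an unadjusted p below 0.05) or under retinoic acid (0% of 17032, 118). For 1110038B12Rik the IAA effect under heat shock minus that without it was 1.05 ± 0.58 (95% confidence interval -0.21 to 2.31), an interval that includes 0.

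In B8 cells, which lack TRF2 as well, 4 of the 9 hosts tested fell with IAA and none rose, in a fit with the run as covariate in which 3.61% of 12686 genes were lower and 2.62% higher. 1110038B12Rik fell 4.27-fold (log2 -2.10 ± 0.22, 95% confidence interval -2.56 to -1.63, adjusted p = 5.47e-05). 2700038G22Rik fell by 0.92 ± 0.24 (adjusted p = 0.0337), Snhg4 by 0.75 ± 0.18 (adjusted p = 0.0266) and 2410006H16Rik by 0.70 ± 0.18 (adjusted p = 0.0364) on the log2 scale. Snhg4 went from 58.2 and 40.4 CPM to 38 and 48.1 CPM in run 6 and from 103 and 95.5 CPM to 46 and 42.9 CPM in run 8, so that only run 8 separated the groups. Within each run, both IAA libraries lay below both controls in 1110038B12Rik and 2700038G22Rik. With the runs pooled, all 4 IAA libraries lay below all 4 controls only in 1110038B12Rik, as they did in 3.26% of genes. Its call held in all 8 fits that left out 1 library, while the calls of 2410006H16Rik and Snhg4 each held in 2 of 8 (those without the second control or the second IAA library of run 6) and that of 2700038G22Rik in 2 of the 4 in which it was tested (lost without the first control or the second IAA library of run 6). Of these fits, Gas5 was called in the one without the second control of run 6, in which 1373 of 14039 genes were lower. Run 6 alone called 0 hosts lower, beside 9 of 11608 genes lower, and run 8 alone 6 hosts, beside 1733 of 13535 genes lower.

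Whether the response to IAA differed between B8 and C64 was tested directly, and no host passed (0.0913% of 15338 genes called). The largest difference was in Snhg4, whose IAA effect was lower in B8 by 0.84 ± 0.25 on the log2 scale (unadjusted p = 0.00349, adjusted p = 0.4). Without the second library of the B8 control of run 6, the one with an unusual share of counts outside the C64 gene list, this value was -1.01 with an adjusted p of 0.00953. For 1110038B12Rik the difference was 0.50 (95% confidence interval -0.33 to 1.32).

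Among untreated cells, the level of Snhg4 was 6.13-fold lower in B8 than in C64, but no gene of 14622 passed the test (0%, with 863 at an unadjusted p below 0.05). Snhg4 had the lowest p of all genes (log2 -2.62 ± 0.33, 95% confidence interval -3.35 to -1.88, adjusted p = 0.113). Its level was 58.2, 40.4, 103 and 95.5 CPM in B8 and 472 and 444 CPM in C64 run 2, and the untreated C64 libraries of run 3, which were not in this comparison, held 443 and 189 CPM. Without the second library of the B8 control of run 6, Snhg4 was called (-2.43, adjusted p = 0.00067). All 4 B8 libraries lay below both C64 libraries in 4 of the 10 hosts (2700038G22Rik, Snhg1, Snhg4 and Snhg5), against 8.43% of genes. Against the same C64 libraries, each B8 run alone gave a call for Snhg4 (run 6 -3.18, adjusted p = 0.000251, run 8 -2.24, adjusted p = 7.28e-07). Both of these fits also called more hosts and genes lower than the main fit did, with the counts given below. Of the 14 alternatives tried for this comparison, 6 called Snhg4 and the rest did not, with values from -3.18 to -2.24. The B8 tables also list Gm50163, on the opposite strand over 3190 bases of Snhg4, with up to 465 counts. Clone, run and depth differ together between these groups and cannot be told apart. The other hosts tested lay between -1.43 (2700038G22Rik, adjusted p = 0.766) and -0.19 (Snhg8).

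Heat shock without IAA lowered Pol II on 6 of the 9 hosts tested, and none rose. Snhg8, Snhg4, Snhg1, Snhg5, Gas5 and 1110038B12Rik fell by 1.14 to 1.74 on the log2 scale, while 1.46% of 16332 genes were lower and 1.57% higher. The median was -1.24 over the hosts and 0.03 over all genes. The 4 heat shock genes chosen as a check, among them Hsph1 (4.06 ± 0.265) and Dnajb1 (1.81 ± 0.297), all rose. Heat shock and 6 h of IAA were measured against the same untreated libraries, so their values are not independent.

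Snhg1, host of 8 snoRNAs, went from 118 and 74.8 CPM to 31.7 and 39.6 CPM under heat shock (-1.43 ± 0.26, adjusted p = 0.00687). Snhg4 went from 472 and 444 CPM to 117 and 218 CPM (-1.44 ± 0.27, adjusted p = 0.00831), and Snhg5 from 134 and 105 CPM to 31.3 and 62.6 CPM (-1.34 ± 0.28, adjusted p = 0.0144). In all 3 the groups were well apart. Gas5 went from 392 and 209 CPM to 98.5 and 154 CPM (-1.24 ± 0.29, adjusted p = 0.026), and Snhg8 from 23.3 and 12.4 CPM to 4.62 and 5.96 CPM (-1.74 ± 0.41, adjusted p = 0.0262). 1110038B12Rik, at 31.3 and 40.4 CPM under heat shock, gave -1.14 ± 0.30 (adjusted p = 0.0457). Hspa1b, one of the check genes that rose, lies upstream of it on the same strand. Any part of Pol II from Hspa1b in the values of 1110038B12Rik under heat shock, with or without IAA, was not tested. 2700038G22Rik (-0.86, adjusted p = 0.0815), Snhg6 (-0.78, adjusted p = 0.23) and 2410006H16Rik (-0.64, adjusted p = 0.17) did not pass. Both heat shock libraries lay below both controls in 9 of the 10 hosts, all but Snhg6 (58.4 and 27.3 against 27.7 and 21.5 CPM), and in 23.2% of the genes tested. The 9 hosts include Snhg3, which was not tested. These calls rested on the first untreated library: without it Snhg4 alone was called, beside 56 of 16957 genes lower in place of 238 of 16332. Without the first or the second heat shock library 8 hosts were called, beside 402 of 16778 and 1623 of 16864 genes lower.

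With IAA present in both arms, heat shock lowered 2 of the 9 hosts tested, beside 0.704% of 16486 genes lower and 0.698% higher. Snhg4 went from 517 and 454 CPM to 70.6 and 214 CPM (-1.77 ± 0.39, adjusted p = 0.0444) and Snhg5 from 87.5 and 89.9 CPM to 28.7 and 47 CPM (-1.23 ± 0.26, adjusted p = 0.0324). The call of Snhg5 was lost without either one of the libraries with IAA alone. Gas5 had a value of -1.34 (adjusted p = 0.0614) and Snhg1 of -1.01 (adjusted p = 0.177). 1110038B12Rik, already low with IAA, stood at 12.2 and 14.3 CPM without and 17 and 6.98 CPM with heat shock (-0.12, 95% confidence interval -0.95 to 0.71). In 7 of the 10 hosts, among them Snhg3, which was not tested, the heat shock libraries lay wholly below, against 24.2% of the genes tested.

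**Figure D4:**
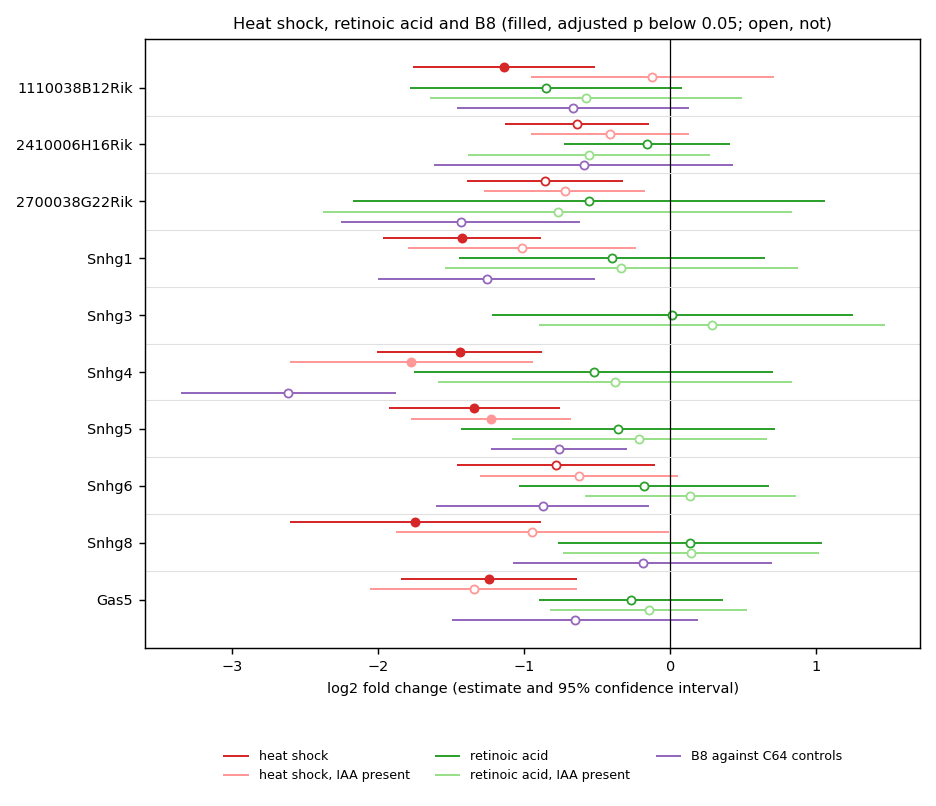
Log2 fold change of each host gene (points, horizontal axis) with its 95% confidence interval (lines) for heat shock and retinoic acid, each without and with IAA, and for untreated B8 against untreated C64 cells. All hosts tested lie below 0 under heat shock, and Snhg4 (-2.62) is farthest from 0 in B8 against C64.

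No host passed the test for retinoic acid in the fit without a replicate block. Without IAA, 0.0183% of 16350 genes were called (1008 at an unadjusted p below 0.05), and with IAA 0% of 16395 (629). Stra8, a retinoic acid target chosen as a check, rose by 3.77 ± 0.288 on the log2 scale (adjusted p = 0.0281). The value farthest from 0 without IAA was that of 1110038B12Rik, at 56.2 and 29.5 CPM without and 31.1 and 16.2 CPM with retinoic acid (-0.85 ± 0.40, 95% confidence interval -1.78 to 0.08, adjusted p = 0.844). Its interval includes both no change and a loss larger than 3-fold. With IAA present the hosts lay between -0.77 and 0.29. Both retinoic acid libraries lay below both controls in none of the hosts without IAA and in 1 with IAA, 1110038B12Rik (9.24 and 7.59 against 4.84 and 6.47 CPM), beside 17.1% and 13.1% of genes.

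The other genes of the pathway were read from lists of the same kind. Of 30 protein-coding snoRNA hosts, 29 were tested over all contexts and 9 fell with IAA, beside 0.733% of all genes tested. Their median was -0.38. The list was made with earlier results known. The study had already listed the hosts named next as lower after 6 h of IAA in C64, from libraries that enter this fit. Hspa8, a constitutive chaperone, fell by 1.62 ± 0.15 (adjusted p = 1.58e-07), Snx5, a sorting nexin, by 1.39 ± 0.15 (adjusted p = 3.62e-06), and the translation-related genes Tpt1 and Eef1b2 by 0.77 and 0.77 on the log2 scale. Of 12 other non-coding hosts 10 were tested and 0 called by edgeR (3 at an unadjusted p below 0.05, median -0.18). The 18 genes of the snoRNA-protein particles and their assembly gave 0 calls by edgeR over all contexts (1 at an unadjusted p below 0.05), with a median of 0.01. Ribosomal protein genes, some of which host snoRNAs too, had 8 of 77 lower (median -0.31), among them Rps9 (-1.20), which the study had also listed.

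Under heat shock without IAA, 5 of 29 protein-coding hosts fell, led by Snx5 (-2.26, adjusted p = 0.00138), Eif4a2 (-1.51) and Rabggtb (-1.62). Of the other non-coding hosts 2 of 10 fell, Zfas1 (-1.27, adjusted p = 0.00991) and Snhg16 (-1.23, adjusted p = 0.00884), and of ribosomal protein genes 13 of 77, among them Rps16 (-1.56) and Rpl22 (-1.33). No gene of these 3 lists rose in this comparison, in which 1.46% of all genes tested were lower and 1.57% higher.

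Over the 24 libraries, after the mean of each of the 4 sets of libraries had been removed, the level of 8 hosts with a mean of at least 20 CPM was compared pair by pair as a description. Pearson's r of log2 CPM lay between 0.269 (1110038B12Rik and Snhg4) and 0.919 with a median of 0.708 over 28 pairs, and these libraries share treatments and depth. The genes with the pattern most like that of 1110038B12Rik among 10243 were Pabpc4 (r = 0.923), Ctsl (0.897), Pabpc1 (0.887), Odc1 (0.869) and Ina (0.868). Most like the mean of the 8 hosts among 10236 genes were Eif4a2 (0.966), Rabggtb (0.95), Tlcd1 (0.946), Nap1l1 (0.942) and Rpl5 (0.941). The study had listed Pabpc4, Pabpc1, Odc1, Eif4a2, Rabggtb, Tlcd1 and Nap1l1 as lower after 6 h of IAA in C64, from libraries that enter this comparison. Eif4a2 and Rabggtb are among the listed protein-coding snoRNA hosts, and the other genes named here were not searched for snoRNAs.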

How the data were processed

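The 10 host genes, the other gene lists and the tests were chosen with earlier results of these data known. The authors aligned paired reads to mm10 with Bowtie2, kept PCR duplicates, drew fixed numbers of reads per library, and deposited fragment counts per gene from featureCounts (version 2.0.0 and the whole gene span, per the file headers of the B8 tables). Counts are raw. Counting was unstranded, and fragments over more than 1 gene were dropped. Depth is given with the results.

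From these counts, CPM were computed with TMM factors over the 24 libraries. Each comparison was fitted over all genes of the C64 tables with edgeR (4.0.16, quasi-likelihood test, TMM, filterByExpr with a minimum count of 20) on only the groups compared, with Benjamini-Hochberg adjustment and a threshold of 0.05. Standard errors and 95% confidence intervals came from the same fits (R 4.3.3). Two-sided tests were used. The study's legends call Pol II libraries biological replicates, while the labels say nothing on separate cultures. With 2 libraries in most groups, p-values measure the spread between these libraries, which may be technical. In runs 2 and 8 the columns of a group carry no replicate number of the labels. No replicate pair agreed within sampling noise (chi-square per gene 1.36 to 14.9 over 12 pairs).

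All 10 hosts were named. From the other lists, at most 4 genes past the threshold with the smallest p were named per comparison, plus genes next to or overlapping a host and the 5 most like 1110038B12Rik and the hosts' mean. The methods were also run on simulated counts, with the same dispersion for all genes and no run or replicate effects. That simulation cannot show how they perform on libraries that differ as these do. Alternatives were the likelihood-ratio test, DESeq2 (1.42.0), scaling by totals or by spike-in (run 3), no filter, a joint fit, a replicate block and leaving out each library. Deposited read numbers served only for the spike-in scaling, and the deposited TATA lists only for membership. The libraries for TBP, TAF1, TAF4, TFIIA, HA-TRF2, Pol III and IgG were not analysed here.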

Additional observations from a re-analysis of the deposited data

How the results depend on the processing

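Of 2063 values of single hosts under the alternatives, 1761 kept their direction and side of the threshold, 65 lost a call, 69 gained one, 0 called values reversed, and 168 that were never called differed in sign. The number of hosts called lower with IAA over all contexts stayed at 3, or 2 to 3 when 1 library was left out. The other counts moved, and the cause was not tested. Where 2 libraries were set against 2, a fit with 1 left out held a single library in 1 group. Such a fit measured no spread within that group, so its calls do not decide whether a result is stable. Brackets give the number of all genes called in the same direction. After 6 h of IAA the 1 host called (7 genes) became 3 by the likelihood-ratio test (29) or DESeq2 (27), 0 without the filter (5) or in the joint fit (0), and 6 with the replicate block (175), or 1 to 3 with 1 library left out. After 16 h the 0 became 1 by the likelihood-ratio test (2), DESeq2 (4), no filter (1) or the block (233), and 0 to 1 with 1 left out. IAA under heat shock went from 0 to 4 with the block (93), and 0 to 1 with 1 left out. IAA under retinoic acid went from 0 to 2 lower (105) and 1 higher (66) with the block, to 2 lower with spike-in scaling and block (177), and 0 to 1 with 1 left out. In B8 the 4 (458) became 2 with scaling by totals (324), 1 with the block (268), 1 without the run term (21) and 0 with run 6 alone (9), and 1 to 5 with 1 left out. Heat shock without IAA went from 6 (238) to 2 without the filter (64) and 0 in the joint fit (95), and 1 to 8 with 1 left out. Heat shock with IAA went from 2 (116) to 4 without the filter (544) or with the block (981) and 0 in the joint fit (116), and 1 to 5 with 1 left out. Retinoic acid without IAA went from 0 (1) to 3 with the block (1086) and 1 with spike-in scaling and block (263), and with IAA from 0 to 1 with the latter (477). B8 against C64 went from 0 to 1 by the likelihood-ratio test (13), DESeq2 (8) or totals (1) and to 4 with run 6 (291) or run 8 (224) alone, and 0 to 1 with 1 left out. The B8 minus C64 interaction went from 0 (3) to 1 (97) in 1 of 12 fits without 1 library, the second B8 control of run 6.

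Spike-in scaling with the replicate block was chosen after seeing the data, because run 3 held 5080 to 5820 spike-in reads for every 1000000 mouse reads in replicate 1 and 84400 to 137000 in replicate 2. For the block, libraries were paired by the labels' numbers in runs 3 and 6 and, for want of a label, by column names in runs 2 and 8. Paired libraries had correlated deviations in runs 2 and 3 (0.255 to 0.772) and not in B8 (-0.0505 and -0.0166). With 2 pairs per comparison, this does not establish pairing. Spike-in scaling was not run for B8. Snhg3 had 0 to 40 counts per library, over 81 countable bases.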

Other observations

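The fit of IAA in B8 cells used more libraries than each C64 comparison of IAA, so their numbers of genes passed are not comparable. In the B8 fit, 7 of the 12 other non-coding snoRNA hosts had enough counts to be tested. Snhg17 fell by 0.90 ± 0.129 (SE) and Snhg16 by 0.94 ± 0.186 on the log2 scale (adjusted p = 0.000954 and 0.00816 in edgeR's quasi-likelihood test), and Snhg14, a long imprinted transcript, rose by 0.88 ± 0.193 (adjusted p = 0.0161). Of the protein-coding hosts 11 of 28 fell, among them Snx5 (-1.89), Hspa8 (-1.64), Rps3 (-1.10) and Taf1d (-1.07), and of ribosomal protein genes 24 of 68 fell and 0 rose. In this fit 3.61% of all genes tested were lower, and the lists were made with earlier results known. The snoRNA-protein particle genes had 0 calls of 16 (3 at an unadjusted p below 0.05) and a median of -0.02.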
